A study of Mus musculus with 12 samples.

Results

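Growth hormone and prolactin receptors signal through the kinase JAK2 and the transcription factors STAT5A and STAT5B. The genes of this pathway were followed in liver and lung of pregnant and virgin mice: the receptor genes Prlr and Ghr, the kinase gene Jak2, Stat5a and Stat5b, the feedback inhibitor genes Socs2, Cish and Socs1, and the repressor genes Bcl6 and Cux2. Probe sets were taken as members when the platform annotation gave them a single symbol from this list of 10 genes. That gave 22 probe sets for 9 genes, out of 45037 probe sets tested: 6 for Socs2, 3 each for Ghr and Cux2, 2 each for Jak2, Stat5a, Stat5b and Bcl6, and 1 each for Cish and Socs1. Prlr had no probe set under that symbol in the annotation and was not analysed here.

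The 4 groups were pregnant liver, virgin liver, pregnant lung and virgin lung of female NOD/SCID mice, a strain that carries the scid mutation on the non-obese diabetic background and lacks mature T and B cells. The pregnant mice were at day 16 of gestation, all mice were 8 to 10 weeks old when the experiments began, and the virgin mice served as the controls of the same strain. Each group had 3 one-colour Affymetrix arrays, and each array measured RNA pooled from 2 mice. The SDs below therefore describe the spread between the pools of a group, not between mice. Values are the deposited log2 expression values computed by the authors with RMA. Differences are log2 differences with standard errors (SE) from a limma fit to all 12 arrays, and a probe set was called when its Benjamini-Hochberg adjusted p over all 45037 probe sets was under 0.05.

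Ligand binding activates JAK2 at the receptor tail, JAK2 phosphorylates STAT5, and STAT5 dimers bind DNA at a palindromic motif and switch on Cish and Socs2, whose products damp the receptor in turn. In the liver this pathway carries the growth hormone signal to Igf1, and the pattern of growth hormone release sets which liver genes differ between the sexes. In pregnancy the placenta adds lactogens that act on the prolactin receptor.

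The arrays of a group correlated at 0.9917 to 0.9961, and their medians lay between 4.491 and 4.555. The mean log2 value of 8 hepatocyte markers (Alb, Apob and others) was 13.84 to 13.87 on pregnant and 13.85 to 13.86 on virgin liver arrays, and 0 of the 8 were called between them. Of 7 neutrophil markers 3 rose in pregnant liver (S100a8, S100a9 and Ngp). The array means of all 7 were 6.09 to 6.43 in pregnant and 5.25 to 5.36 in virgin liver. In lung 1 of the 7 rose, with array means of all 7 of 7.77 to 9.26 in pregnant and 7.46 to 7.79 in virgin lung. These lung ranges overlapped, and pregnant pool 2 was the highest pregnant lung array for each of the 7. Ngp read 7.25, 10.20 and 8.36 in pregnant lung pools 1 to 3, against 7.57 to 7.77 in virgin lung. The lung groups overlapped for Ngp, Camp, Ltf and Elane and did not overlap for S100a8, S100a9 and Mmp9. S100a9 read 12.04, 12.85 and 12.31 in pregnant lung, against 11.37, 11.58 and 11.04 in virgin lung. Of the other markers in liver, the erythroid gene Alas2 rose (1 of 5), the natural killer cell gene Gzmb fell (1 of 6), 1 of 8 pancreatic acinar genes rose and 2 fell, and 0 of 7 macrophage genes were called. Beside these counts, 11.1% of all genes by their brightest probe set were called in liver and 0.33% in lung. The part of these markers in the results below was not tested. Fewer cells of a type and less RNA per cell cannot be told apart in whole tissue. The poly-A control RNAs added before labelling read a mean of 5.46 on the array of pregnant liver pool 3 and 4.91 on that of virgin liver pool 3, against 11.76 to 12.27 on the other 10 arrays. Liver changes of probe sets described singly are therefore given separately where pool 3 and pools 1 and 2 differ by over 1.5 times.

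In liver 4 of the 22 probe sets rose with pregnancy, 0 fell and 18 did not pass. They were the 3 probe sets of Ghr and the 1 of Cish, thus 2 of 9 genes by their brightest probe set. Of all probe sets 8.16% were called in this comparison (3.7% upwards and 4.46% downwards), and of all genes by their brightest probe set 11.1%. The 3 Ghr probe sets read 1 gene and are not independent, so the share of 2 in 9 genes rests on very few. For 7 of the 22 every pregnant pool lay on the same side of every virgin pool, as it did for 22.6% of all probe sets. In lung limma called 0 of the 22, where 0.213% of all probe sets were called, 1 of the 22 had an unadjusted p under 0.05, and 3 of the 22 had groups without overlap, beside 15.6% of all probe sets.

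**Figure D1:**
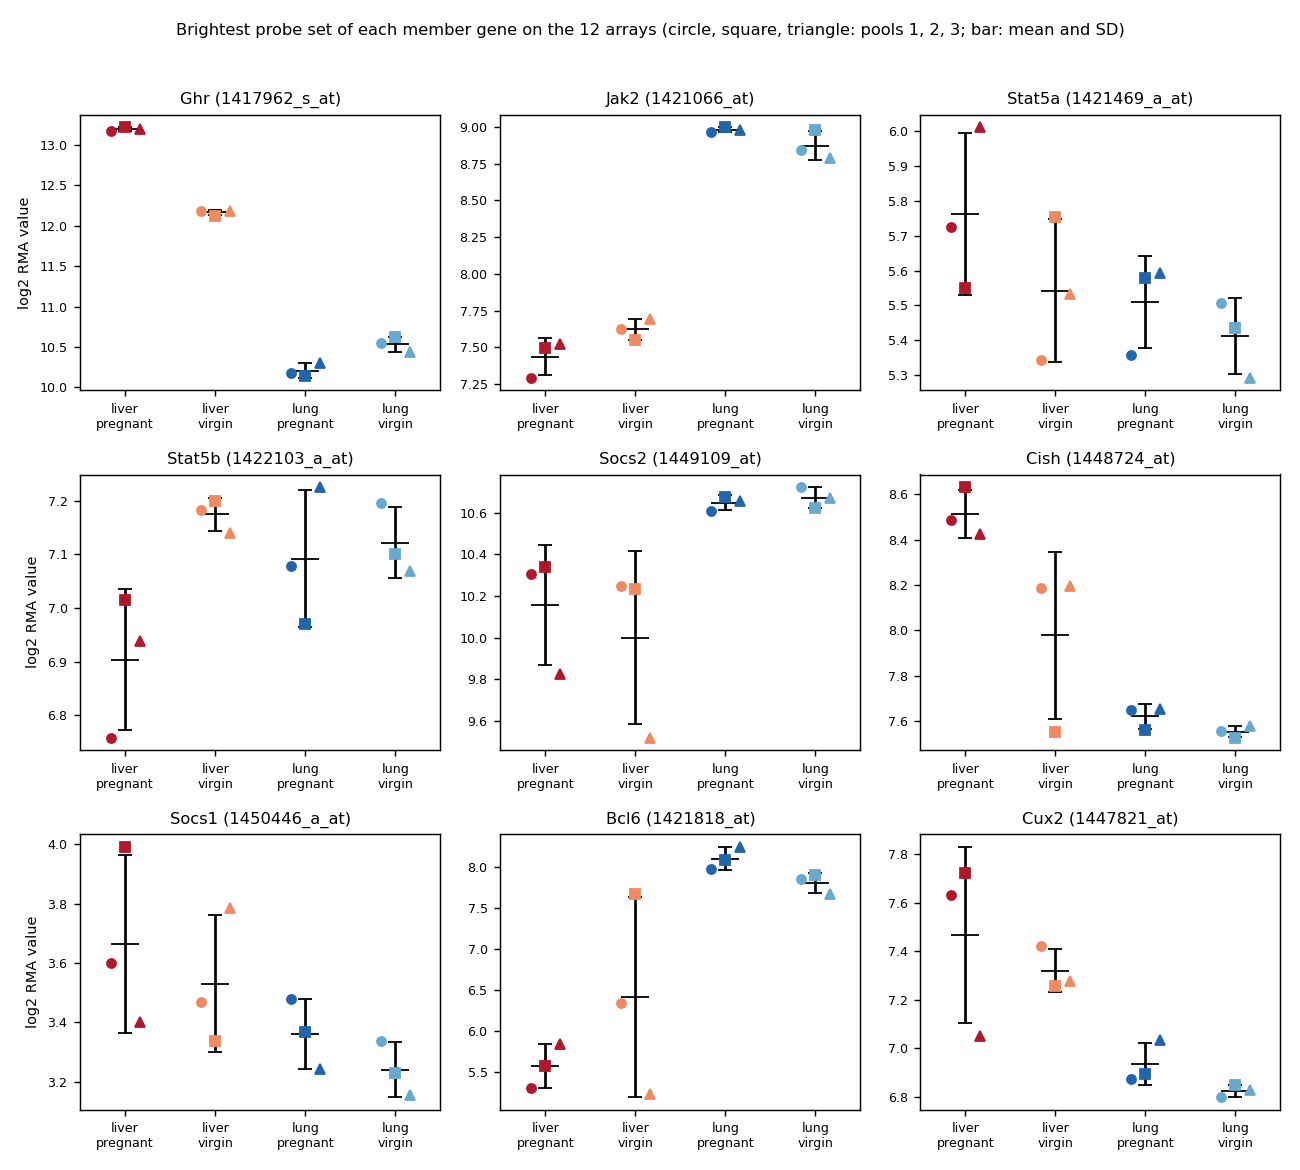
Log2 RMA values of the brightest probe set of each of the 9 measured genes in pregnant liver, virgin liver, pregnant lung and virgin lung (1 marker per array, bar with mean and SD, n = 3 pools; each panel has its own vertical scale). Ghr separates pregnant liver (13.17 to 13.22) from virgin liver (12.12 to 12.18), and Bcl6 spreads widely on the virgin liver arrays (5.24 to 7.67).

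Ghr encodes the growth hormone receptor, which hepatocytes carry in abundance, and in the mouse the same gene also yields the soluble growth hormone-binding protein through alternative splicing. The files do not say which of these transcripts each probe set reads. All 3 probe sets were higher in pregnant liver. The probe set 1451501_a_at read 13.81, 13.73 and 13.78 in pregnant liver pools 1 to 3, against 11.89, 11.91 and 11.84 in virgin liver. These groups lay far apart compared with their spread (SD 0.040 and 0.035, n = 3 each). The change was 1.89 ± 0.089 (SE), a 3.71-fold rise (limma adjusted p = 2.87e-09), and ranked 92 among the rises of all 45037 probe sets.

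The probe set Ghr 1451871_a_at was dimmer and rose by about the same factor. It read 9.35, 9.32 and 9.80 in pregnant liver, against 7.45, 7.81 and 7.56 in virgin liver. The change was 1.88 ± 0.19 (SE), or 3.69-fold (limma adjusted p = 1.08e-05). The names of all 3 carry a suffix for probes that can match several transcripts. The third, Ghr 1417962_s_at, rose less. It read 13.17, 13.22 and 13.19 in pregnant liver, against 12.18, 12.12 and 12.18 in virgin liver, a 2.04-fold rise (log2 1.03 ± 0.092, limma adjusted p = 3.18e-06). Every pregnant liver pool lay above every virgin liver pool for each of the 3.

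The unequal size of the Ghr rises was seen within single arrays. The value of 1451501_a_at minus that of 1417962_s_at on the same array was 0.58 ± 0.061 in pregnant liver and -0.28 ± 0.067 in virgin liver (SD, n = 3 pools each), with ranges of 0.52 to 0.64 and -0.34 to -0.21 that did not overlap. Between 1451501_a_at and 1451871_a_at the same difference was 4.28 ± 0.26 (SD) in pregnant liver and 4.27 ± 0.17 in virgin liver, with overlapping ranges. The 2 brighter probe sets lay near the top of the scale, whose highest value on any array was 14.77. Of these 1451501_a_at, with the larger rise, was the brighter in pregnant liver (mean 13.77 against 13.19) and the dimmer in virgin liver (11.88 against 12.16). The part of signal compression in the smaller rise of 1417962_s_at was not tested.

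In lung the Ghr probe sets were lower than in liver, and none passed the test with pregnancy. The probe set 1417962_s_at read 10.18, 10.14 and 10.31 in pregnant lung, against 10.55, 10.62 and 10.44 in virgin lung. The groups did not overlap, yet the change of -0.33 ± 0.092 (SE) did not pass (limma adjusted p = 0.225). The other probe sets, 1451501_a_at and 1451871_a_at, had changes of -0.11 and -0.16 with overlapping groups (adjusted p = 0.922 and 0.977). With a variance trend and robust moderation Ghr 1417962_s_at was called in lung (adjusted p = 0.0193), and across all 19 alternatives its adjusted p ran from 0.0193 to 0.64.

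The pregnancy change of Ghr differed between the tissues for every one of its probe sets. The liver change minus the lung change was 2.01 ± 0.13 (SE) for 1451501_a_at (limma adjusted p = 1.74e-07), 2.04 ± 0.26 for 1451871_a_at (adjusted p = 0.000336) and 1.36 ± 0.13 for 1417962_s_at (adjusted p = 1.71e-05). These were the only 3 of the 22 probe sets called in that comparison with all arrays in the fit, where 3.42% of all probe sets were called (1.73% with a larger value in liver). Ghr was highest in pregnant liver, then in virgin liver, then in both lung groups. The lung groups overlapped for 2 of its 3 probe sets.

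**Figure D2:**
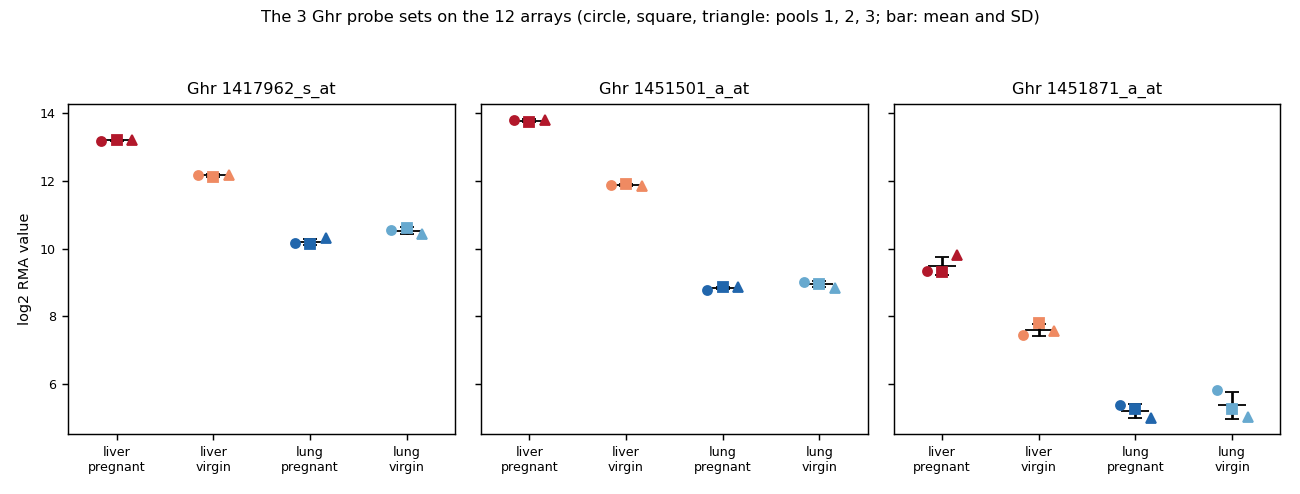
Log2 RMA values of the 3 Ghr probe sets on the 12 arrays by group (1 marker per array, bar with mean and SD, n = 3 pools). Pregnant liver lies above virgin liver in each panel, by 1.03 for 1417962_s_at and by 1.89 and 1.88 for the others, while the lung groups lie close together.

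Jak2, the kinase bound to both receptors, had no called change in either tissue. The probe set 1421066_at read 7.29, 7.49 and 7.52 in pregnant liver, against 7.63, 7.55 and 7.69 in virgin liver. The groups did not overlap, and the change of -0.19 ± 0.098 (SE) did not pass (limma adjusted p = 0.302, 95% interval -0.40 to 0.023). The dimmer probe set 1421065_at had a change of -0.35 ± 0.16 (adjusted p = 0.239), which was -0.56 within pools 1 and 2 and 0.08 within pool 3. In lung 1421066_at read 8.97, 9.0 and 8.98 in pregnant mice, against 8.85, 8.98 and 8.79 in virgin mice (change 0.11, adjusted p = 0.946).

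Stat5a and Stat5b encode the pathway's paired transcription factors, of which STAT5B is the main form in liver. Neither had a called change. Stat5b 1422103_a_at read 6.76, 7.01 and 6.94 in pregnant liver, against 7.18, 7.20 and 7.14 in virgin liver. All pregnant pools lay below all virgin pools, but the change of -0.27 ± 0.10 (SE) did not pass (limma adjusted p = 0.131), with -0.31 within pools 1 and 2 and -0.20 within pool 3. The second probe set, Stat5b 1422102_a_at, had the opposite sign (0.21 ± 0.14, adjusted p = 0.45), so the gene's direction in liver differed between its probe sets.

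Stat5a 1421469_a_at read 5.73, 5.55 and 6.01 in pregnant liver, against 5.34, 5.75 and 5.53 in virgin liver, with overlapping groups (change 0.22 ± 0.14, limma adjusted p = 0.396). Pools 1 and 2 alone gave 0.09 and pool 3 alone 0.48. The other Stat5a probe set, 1450259_a_at, lay below 4.53, the median of all values, in every group, where signal above background is not shown. In lung the 4 probe sets of the STAT5 genes had changes of -0.16 to 0.10, and none passed (adjusted p of at least 0.951).

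Cish, whose product blocks STAT5 docking at the activated receptor and which STAT5 itself induces, was the other gene that rose in pregnant liver. It read 8.48, 8.63 and 8.43 in pregnant liver, against 8.19, 7.55 and 8.19 in virgin liver. Every pregnant pool lay above every virgin pool, with virgin pool 2 far below the other virgin pools. The change was 0.54 ± 0.14 (SE), a 1.45-fold rise (limma adjusted p = 0.0313), with 0.69 within pools 1 and 2 and 0.23 within pool 3.

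The call for Cish rested on few arrays. Without virgin liver pool 2 the change was 0.32 (limma adjusted p = 0.09), without pregnant liver pool 1 it was 0.55 (adjusted p = 0.0662), and without pregnant liver pool 2 it was 0.48 (adjusted p = 0.105). With the 6 liver arrays alone the adjusted p was 0.129 at the same change, and across 20 alternatives, of which 14 kept the call, it ran from 0.0103 to 0.129. In lung Cish read 7.65, 7.56 and 7.65 in pregnant mice, against 7.55, 7.53 and 7.58 in virgin mice, with overlapping groups (change 0.068 ± 0.14, adjusted p = 0.995). The liver change minus the lung change was 0.47 ± 0.20 and did not pass (adjusted p = 0.287), so a difference between the tissues was not shown for Cish.

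The start of Cish carries the motif that STAT5 dimers recognise, TTCNNNGAA, which reads the same on both strands. It was searched for in RefSeq promoter windows of build GRCm38.p6, each holding 250 bases before and 50 after an annotated gene start. Cish had 1 window with 2 matches, which lie side by side at the annotated start. The first 30 bases from that start (chr9:107296659-107296688, plus strand, the matches in capitals) are shown because Cish is the member with a called change that holds the motif.
Cish: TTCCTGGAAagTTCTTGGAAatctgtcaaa
Of all 32851 windows of 300 bases 8.3% held at least 1 match and 0.457% at least 2. A match describes the letters and is no evidence of binding in these tissues. The 2 windows of Ghr held none.

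Socs2, the inhibitor of growth hormone signalling whose loss gives giant mice, had no called change in 6 probe sets. The brightest, 1449109_at, read 10.31, 10.34 and 9.83 in pregnant liver, against 10.25, 10.23 and 9.52 in virgin liver. The groups overlapped, and pool 3 was the lowest of both (change 0.16 ± 0.17, limma adjusted p = 0.676), with 0.08 within pools 1 and 2 and 0.31 within pool 3. The next brightest, 1418507_s_at, had a change of 0.11 ± 0.12 (adjusted p = 0.653), with 0.040 from pools 1 and 2 alone and 0.26 from pool 3 alone. For both of these bright probe sets the 95% interval of the liver change stayed below 0.53, which is less than a doubling.

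Among the dimmer Socs2 probe sets, 1442586_at read 5.36, 5.53 and 5.11 in pregnant liver, against 5.73, 5.66 and 5.77 in virgin liver. These groups did not overlap, and the change of -0.39 ± 0.14 did not pass (limma adjusted p = 0.121), with -0.25 within pools 1 and 2 and -0.66 within pool 3. The other 3 had liver changes of -0.31 to 0.13. Of these 1446085_at and 1441476_at lay below the median of all values in every group, and 1438470_at did so in both liver groups. Pools 1 and 2 alone gave -0.53 for 1446085_at and 0.16 for 1441476_at, and pool 3 alone 0.12 and 0.067. In lung 1449109_at read 10.61, 10.68 and 10.66 in pregnant mice, against 10.72, 10.62 and 10.67 in virgin mice, a change of -0.024 with overlapping groups (adjusted p = 0.998). The lung changes of all 6 Socs2 probe sets ran from -0.19 to 0.30, and none passed.

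Socs1, an inhibitor that binds JAK2 directly and is best known from interferon signalling, was read by 1 dim probe set, 1450446_a_at. It read 3.60, 3.99 and 3.40 in pregnant liver, against 3.47, 3.34 and 3.78 in virgin liver, and all groups lay below the median of all values. The liver change was 0.13 ± 0.15 (limma adjusted p = 0.672) and the lung change 0.12 ± 0.15 (adjusted p = 0.981), both with overlapping groups. The liver value was 0.39 within pools 1 and 2 and -0.38 within pool 3.

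Bcl6 encodes a repressor that binds many of the same liver sites as STAT5, is lowered by growth hormone and is higher in male than in female mouse liver. Its bright probe set 1421818_at read 5.31, 5.58 and 5.84 in pregnant liver, against 6.34, 7.67 and 5.24 in virgin liver. The groups overlapped because virgin pool 3 lay below all pregnant pools, and the virgin pools spanned 5.24 to 7.67. The change of -0.84 ± 0.39 (SE) did not pass (limma adjusted p = 0.234). Pools 1 and 2 alone gave -1.56 and pool 3 alone 0.61. Without virgin liver pool 3 it was -1.43 and was called (adjusted p = 0.00652), as it was without both liver pool 3 arrays (adjusted p = 0.00859), whereas without virgin liver pool 2 it was -0.21 (adjusted p = 0.711). The size and the call thus rested on single virgin arrays, and the 95% interval ran from -1.67 to -0.0062.

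The liver change minus the lung change of Bcl6 1421818_at was -1.13 ± 0.55 (limma adjusted p = 0.362), and without virgin liver pool 3 it was -1.72 and was called (adjusted p = 0.0219). Without virgin liver pool 2 that difference was -0.51 (adjusted p = 0.557). In lung the same Bcl6 probe set read 7.97, 8.08 and 8.24 in pregnant mice, against 7.85, 7.90 and 7.67 in virgin mice. All pregnant lung pools lay above all virgin lung pools, but the change of 0.29 ± 0.39 did not pass (limma adjusted p = 0.987). This fit shares 1 error per probe set over the 4 groups, and for Bcl6 the SD was 1.22 in virgin liver and 0.12 to 0.27 in the other groups. It passed in 0 of 20 alternatives (adjusted p of at least 0.363). The second Bcl6 probe set, 1450381_a_at, lay below the median of all values in every group.

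Bcl6 was the other measured gene with the STAT5 motif in its promoter windows. One annotated start had 3 matches in the 250 bases before it, a number that 0.0335% of all 300-base windows reached, and the other start had 1. Both stretches are on the minus strand of build GRCm38.p6 (chr16:23981284-23981533 and chr16:23988952-23988980), with the matches in capitals. They are shown because Bcl6 is the measured member with the most matches.
Bcl6, start with 3 matches: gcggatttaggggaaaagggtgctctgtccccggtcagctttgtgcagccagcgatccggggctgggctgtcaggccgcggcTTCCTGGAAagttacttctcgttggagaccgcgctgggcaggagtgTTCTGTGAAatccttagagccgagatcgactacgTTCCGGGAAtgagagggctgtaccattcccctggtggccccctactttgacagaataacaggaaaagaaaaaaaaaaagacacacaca
Bcl6, start with 1 match: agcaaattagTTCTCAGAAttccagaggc
The windows of Jak2, Stat5a, Stat5b, Socs1 and Cux2 held no match, and 1 of the 3 windows of Prlr held 1.

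Cux2, a repressor that growth hormone raises in female mouse liver, had no called change in its 3 probe sets. The brightest over all arrays, 1447821_at, read 7.63, 7.72 and 7.05 in pregnant liver, against 7.42, 7.26 and 7.28 in virgin liver, with overlapping groups (change 0.15 ± 0.14, limma adjusted p = 0.619). Pools 1 and 2 alone gave 0.34 and pool 3 alone -0.23, and without pregnant liver pool 3 the change was called. The probe set 1447500_at read 8.88, 8.51 and 8.60 in pregnant liver, against 8.39, 8.57 and 7.31 in virgin liver, where pool 3 was far below the others. Its change of 0.57 ± 0.23 did not pass (adjusted p = 0.168), pools 1 and 2 alone giving 0.22 and pool 3 alone 1.29. The third, 1450181_at, had a change of 0.23 (adjusted p = 0.588), which was -0.016 within pools 1 and 2 and 0.73 within pool 3. In lung 1447821_at read 6.87, 6.89 and 7.03 in pregnant mice, against 6.80, 6.85 and 6.83 in virgin mice, without overlap, and the change of 0.11 ± 0.14 did not pass (adjusted p = 0.986).

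**Figure D3:**
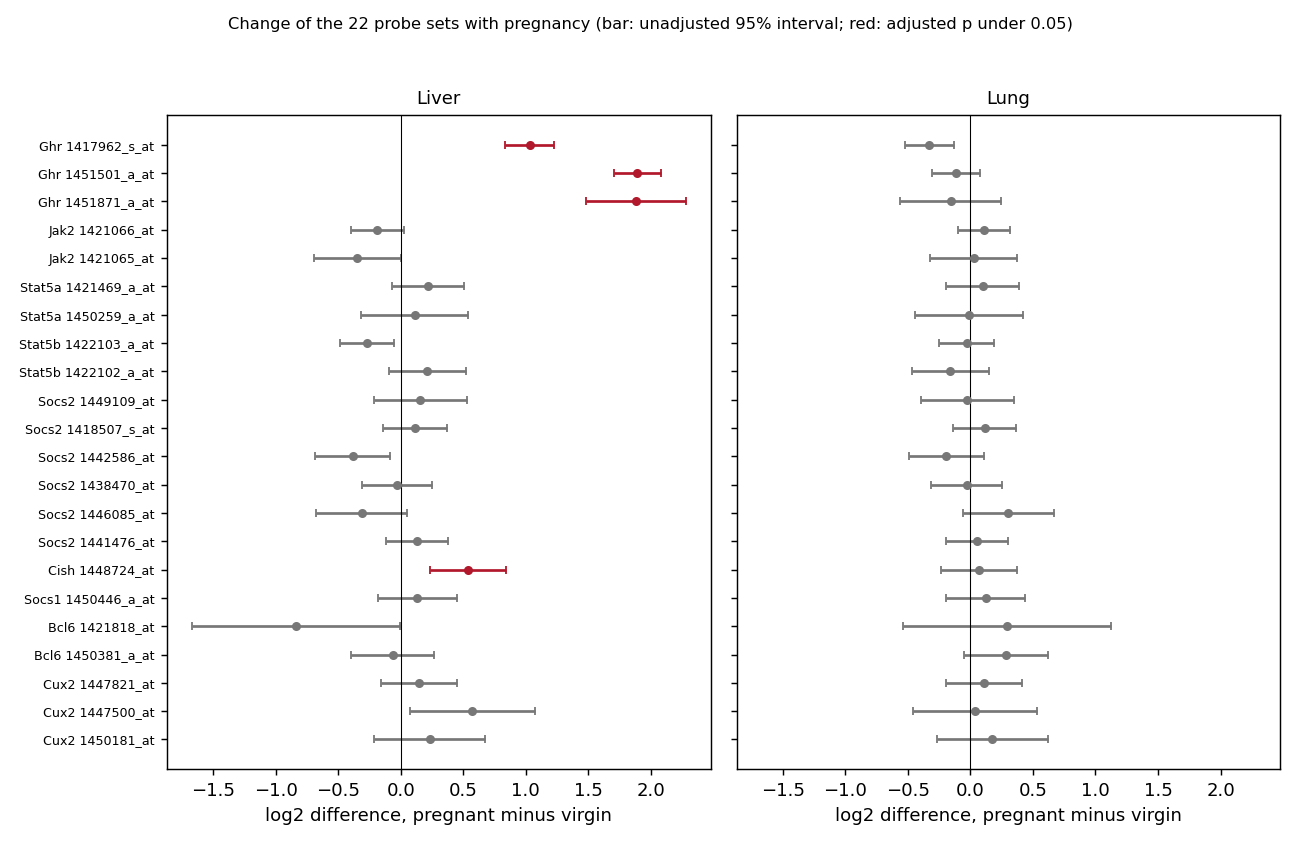
Log2 difference between pregnant and virgin mice for each of the 22 probe sets in liver and in lung, with unadjusted 95% intervals from the limma fit to 12 arrays. The 3 Ghr probe sets and Cish are called in liver, the Bcl6 1421818_at interval is the widest in both tissues, and 0 probe sets are called in lung.

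For the probe sets that did not pass, the intervals give the sizes left possible for the measured signal. In liver the unadjusted 95% interval lay within a 2-fold change either way for 16 of the 18, the exceptions being Bcl6 1421818_at and Cux2 1447500_at. In lung it did so for 21 of 22, the exception again being Bcl6 1421818_at, with bounds of -0.54 and 1.13. These counts include the dim probe sets of Stat5a, Socs2, Socs1 and Bcl6 that lay below the median of all values. Socs2 1438470_at lay below it in liver only. Signal above background is not shown there, so those intervals do not bound the change of the transcript.

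Without pregnancy the tissues differed in 16 of the 22 probe sets, 10 higher and 6 lower in virgin liver than in virgin lung, where 55.9% of all probe sets were called (29.7% higher and 26.2% lower). The groups did not overlap for 14 of the 22, beside 63.5% of all probe sets. Ghr was higher in virgin liver by 1.63, 2.93 and 2.22 in its 3 probe sets, in the order 1417962_s_at, 1451501_a_at and 1451871_a_at, or by 3.09-fold to 7.62-fold (limma adjusted p from 2.4e-13 to 5.84e-08). Cux2 was higher in virgin liver too, by 3.10 ± 0.23 for 1447500_at (adjusted p = 1.53e-08), 1.43 ± 0.21 for 1450181_at and 0.50 ± 0.14 for 1447821_at. Jak2 was lower in virgin liver in both probe sets, by -1.25 ± 0.098 for 1421066_at (adjusted p = 2.38e-08) and -1.01 ± 0.16 for 1421065_at.

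The inhibitor genes split between the virgin tissues. Socs2 was lower in virgin liver by -0.67 ± 0.17 for 1449109_at (limma adjusted p = 0.00431), -0.33 ± 0.12 for 1418507_s_at and -2.18 ± 0.13 for 1438470_at (adjusted p = 1.15e-09). The last read 3.64 to 4.09 in virgin liver, below the median of all values, so the size of its difference is uncertain. The call for 1418507_s_at was kept in 10 of 15 alternatives. The dim Socs2 probe set 1441476_at was higher by 0.30, a call that 8 of 15 kept. Cish was higher in virgin liver by 0.43 ± 0.14 (adjusted p = 0.0203) although the groups overlapped at virgin liver pool 2, and 13 of 18 alternatives kept that call. Bcl6 1421818_at was lower in virgin liver by -1.39 ± 0.39 (adjusted p = 0.00708), with -0.80 without virgin liver pool 3 and -2.01 without virgin liver pool 2. Of 18 alternatives 17 kept that call, and the mean of both its probe sets did not (-0.50, adjusted p = 0.0748). Its dim probe set 1450381_a_at was higher by 0.40, a call that 7 of 14 alternatives kept. Stat5b 1422102_a_at was higher by 0.65 ± 0.14 (adjusted p = 0.00131), whereas Stat5b 1422103_a_at and both Stat5a probe sets did not pass.

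Other genes of the pathway were read from lists, each gene by its brightest probe set. The lists were chosen with earlier results of these data known, so their counts are descriptions and not tests. Of 24 measured JAK-STAT regulators 1 rose in pregnant liver, 0 fell and 23 did not pass, with a median change of -0.035 beside -0.0083 over all genes, of which 4.92% rose and 6.22% fell. The riser was Ptpn1, the phosphatase gene whose product acts on JAK2, with 8.04, 8.07 and 8.11 in pregnant liver against 7.47, 7.77 and 7.73 in virgin liver (change 0.42 ± 0.10, limma adjusted p = 0.0189). For Stat3 the difference was 0.30 (adjusted p = 0.143), with 0.22 within pools 1 and 2 and 0.47 within pool 3. In lung limma called 0 of the 24, where 0.33% of all genes were called. The pituitary hormone genes Gh and Prl did not pass in either tissue, and the level of Prl lay below the median of all values in every group.

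Of 12 genes linked to STAT5 in the literature 3 rose and 3 fell in pregnant liver, and 6 did not pass, where 4.92% of all genes rose and 6.22% fell (median change 0.046, beside -0.0083 over all genes). Because earlier results were known when the 12 were chosen, these shares cannot show that STAT5-linked genes changed more often than others. A2m, which encodes alpha-2-macroglobulin and is induced by prolactin in the rat ovary, read 10.26, 10.33 and 10.63 in pregnant liver, against 3.72, 3.88 and 3.76 in virgin liver, a rise of 6.62 ± 0.13 (SE, limma adjusted p = 1.05e-13). The virgin liver values lay below the median of all values, where signal above background is not shown, so the size of the A2m rise is uncertain. The survival gene Bcl2l1 rose by 0.56 ± 0.093 (adjusted p = 0.00117), and Onecut1, a liver transcription factor gene, by 0.66 ± 0.16 (adjusted p = 0.0192), with 0.39 within pools 1 and 2 and 1.20 within pool 3. Slc10a1, the main bile salt uptake transporter gene of hepatocytes, changed by -0.94 ± 0.24 (adjusted p = 0.0238), and the cyclin genes Ccnd1 and Ccnd2 by -0.62 (-0.71 within pools 1 and 2 and -0.45 within pool 3) and -0.39. Igf1, the main hepatic output of growth hormone, read 11.81, 11.92 and 11.81 in pregnant liver, against 12.31, 12.17 and 12.33 in virgin liver. The groups did not overlap, and the change of -0.42 ± 0.14 did not pass (adjusted p = 0.078). In lung Igf1 read 7.63, 7.21 and 7.82 in pregnant mice, against 8.21, 8.29 and 8.00 in virgin mice, again without overlap and without passing (change -0.61 ± 0.14, adjusted p = 0.102). In lung 0 of the 12 were called.

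Genes known to differ between male and female mouse liver under growth hormone control moved both ways, beside 4.92% of all genes that rose, 6.22% that fell and a median of -0.0083. Of 11 measured male-biased genes 2 rose, 4 fell and 5 did not pass in pregnant liver, with a median of -0.17. Ugt2b38 and Cyp4a12a among them lay below the median of all values on every array, where signal above background is not shown. Nudt7, a peroxisomal coenzyme A hydrolase gene, fell most among the called members (-1.91 ± 0.13, limma adjusted p = 1.07e-07), the steroid hydroxylase gene Cyp7b1 rose by 0.81 ± 0.14, the glutathione transferase gene Gstp1 rose by 0.63, and Cyp2d9 changed by -0.62. Of 10 measured female-biased genes 2 rose, 2 fell and 6 did not pass, with a median of 0.061. The cytochrome P450 gene Cyp3a16 rose by 1.64 ± 0.15 (adjusted p = 4.23e-06) and Nipal1 by 0.84 ± 0.17, with 0.56 within pools 1 and 2 and 1.39 within pool 3. Cyp2b13 changed by -1.62 ± 0.25 (-1.83 within pools 1 and 2 and -1.20 within pool 3) and the neurotrophin receptor gene Ntrk2 by -1.77 ± 0.10. In lung Ntrk2 was the only called gene of these lists and rose by 0.65 ± 0.10 (adjusted p = 0.0164).

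**Figure D4:**
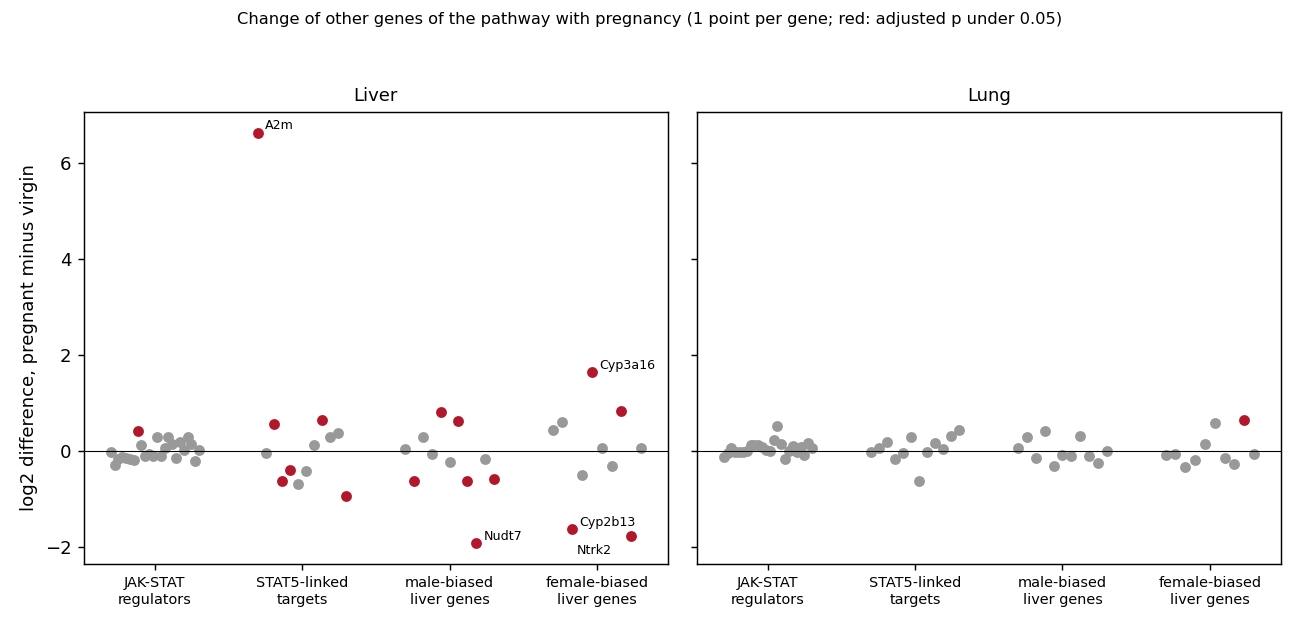
Log2 difference between pregnant and virgin mice for each gene of 4 lists (JAK-STAT regulators, STAT5-linked targets, male-biased and female-biased liver genes) in liver and in lung, 1 point per gene by its brightest probe set. A2m lies at 6.62 in liver (its virgin liver level is below the median of all values), the called male-biased and female-biased genes lie on both sides of 0, and in lung only Ntrk2 is called.

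The genes whose values ran closest to Ghr 1417962_s_at over the 12 arrays were Necab1 (Pearson r = 0.9977), Myorg (r = 0.9968) and Sil1 (r = 0.9965). Necab1 rose in pregnant liver by 1.32, Myorg by 0.83 and Sil1 by 0.44. For Cish they were 4833439F03Rik (r = 0.9852), Lrrc59 (r = 0.9772) and Uso1 (r = 0.9718), with liver rises of 0.48, 0.61 and 0.42. These correlations describe arrays that share the large difference between liver and lung.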

How the data were processed

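The deposited values are log2 expression values made by the authors with RMA from the affy package, per the submitters' processing notes, which name no versions; which arrays were normalized together is not given in the sources used here. RNA of 2 mice was pooled per array, per the labels. After removal of 64 control probe sets 45037 remained, of which 34945 had 1 gene symbol in the platform annotation, 932 several and 9160 none; 18193 genes had a probe set. With limma 3.58.1 in R 4.3.3, 1 mean per group was fitted for the 4 groups on 12 arrays (8 residual and 6.59 prior degrees of freedom), with Benjamini-Hochberg adjustment over all 45037 probe sets and no filter on dim ones. Groups came from the sample titles. All members are reported. Of each list up to 4 called genes with the largest change per pregnancy comparison are named, and for a called member the 3 genes of highest correlation; further list genes (Stat3, Gh, Prl, Igf1, Bcl2l1 and Ccnd2 among them) were named after their values were seen. The members and lists were chosen with earlier results of these data known. Listed genes without a single-symbol probe set in the annotation (for example Retnlg and the placental lactogens) were not analysed here. The number of arrays limits the precision. Alternatives changed the arrays fitted, probe set filters, scaling, moderation, blocks and thresholds. The steps were tested on simulated data. Promoter sequences are from RefSeq, build GRCm38.p6; windows were found for 9 of the 10 genes, and Socs2 was not among them.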

Additional observations from a re-analysis of the deposited data

Results flagged for a closer look

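The change of Ghr with pregnancy differed between liver and lung by the test of the difference itself (limma, adjusted over all 45037 probe sets). The liver change minus the lung change was 1.36 for 1417962_s_at (adjusted p = 1.71e-05), 2.01 for 1451501_a_at (adjusted p = 1.74e-07) and 2.04 for 1451871_a_at (adjusted p = 0.000336). All 3 kept this call in each alternative that could be computed for them (24, 22 and 22 alternatives, without those on the threshold).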

How the results depend on the processing

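The counts of called member probe sets (4 in liver, 0 in lung, 3 for the difference between tissues and 16 between virgin tissues) moved by over 1.5 times only where fewer features were tested, the call rule was stricter or the variance model changed. With the brightest probe set per gene they were 2 in liver, 1 for the difference and 6 between virgin tissues, and with a gene's probe sets averaged again 2, 1 and 6. With suffixed probe sets left out, which removes all of Ghr, they were 1, 0 and 10. A variance trend with robust moderation gave 1 in lung (Ghr 1417962_s_at), and a 2-fold minimum gave 9 between virgin tissues. Leaving out single arrays gave 3 to 5 in liver, 0 in lung, 3 to 4 for the difference and 12 to 15 between virgin tissues. Without both liver pool 3 arrays the counts were 5, 0, 4 and 13. Of 1058 single values recomputed, 1005 stayed on their side of the threshold, 45 lost and 8 gained a call, and 23, none of them called, changed sign; the cause was not tested. Deviations of same-numbered pregnant and virgin arrays correlated at -0.0832 to 0.114 in liver and -0.0143 to 0.0725 in lung. The highest of these was between both liver pool 3 arrays, which share the low poly-A control values. Liver arrays of unlike number correlated at -0.183 to 0.105. Whether same-numbered lung and liver pools came from the same mice is not given in the sources used here. The consensus correlation of lung and liver arrays of the same state and pool number was 0.0086. With pool number as a replicate block the counts were 3, 0, 3 and 12, and Cish in liver lost its call (adjusted p = 0.0623). Over all probe sets the 3675 liver calls became 2025 with liver arrays alone, 1826 at an adjusted p under 0.01 and 559 with a 2-fold minimum, and 2482 and 2211 in the gene-level fits and 2449 without suffixed probe sets. The 96 lung calls became 151 without dim probe sets, 250 with the variance trend, 366 with array weights, 27 and 28 at the stricter rules, and 34 to 116 without single arrays. Normalization within tissue and the block for liver pool 3 were not run between virgin tissues; that batch is inferred from the poly-A control values, and no label names it. Signal above background limits Socs1, the second probe sets of Stat5a and Bcl6 and 3 of Socs2 (1 of them in liver only).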

Other observations

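In virgin liver the pools that stood apart for Bcl6 and for Cish were partly the same. Pool 2 had the highest Bcl6 1421818_at value (7.67) and the lowest Cish value (7.55) of the virgin liver arrays, pool 1 had 6.34 and 8.19, and pool 3 had 5.24 and 8.19. The pregnant liver arrays had Bcl6 values of 5.31 to 5.84 and Cish values of 8.43 to 8.63. With 3 pools per group no relation between the genes was tested.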
